A study of Homo sapiens with 3 samples.

Results

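The eicosanoid enzymes described here are the products of 10 genes, PLA2G4A, PTGS1, PTGS2, PTGES, ALOX5, ALOX5AP, LTA4H, ALOX12, ALOX15B and HPGD. They were taken by the gene name in the annotation of the array files, which gave 24 transcripts of these 10 genes among 23595 gene symbols measured. The cells were HaCaT, human epidermal keratinocytes that became immortal spontaneously in culture, and RNA was measured on single-colour Cy3 NimbleGen arrays. The 3 groups were cells given all-trans retinoic acid together with nicotinamide (ATRA+NIC), cells given all-trans retinoic acid (ATRA), and untreated cells (Control). Retinoic acid was at 1 µM in both groups given it. Each group had an incubation of 36 h and 1 array. All groups were grown in medium with fetal bovine serum, the nicotinamide dose was not found in the labels, and no array held cells given nicotinamide alone.

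Eicosanoids are signalling lipids made from arachidonic acid, which cytosolic phospholipase A2 cuts from membrane phospholipids. Cyclooxygenases turn arachidonic acid into prostaglandin H2, from which terminal synthases make prostaglandin E2 and the other prostanoids, while lipoxygenases turn it into hydroxy fatty acids and leukotrienes. In skin, keratinocytes are a source of prostaglandin E2, which is known for its part in inflammation, wound repair and cell growth, and leukotrienes are made mainly by leukocytes.

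The median transcript intensity was between 297.9 and 302.3 on the 3 arrays, random probes lay between 18.4 and 19.6, and 73.6% to 73.8% of transcripts reached an intensity of 50. All 8 keratinocyte markers in the list used (KRT5, KRT14, TP63, KRT17, DSG3, ITGA6, LAMB3 and CDH1) reached 50 on every array. There were no replicates, so no test between groups was possible, and the number of arrays limits the precision. Values below are intensities as deposited, or gene levels, which are means of the log2 intensities of the transcripts of a gene. The only spread that could be measured was between transcripts of the same gene, which are read by different probes. It may hold true differences between transcripts beside technical error. Over 11864 genes with more than 1 transcript, differences of single transcripts scattered around the gene mean with a pooled SD of 0.45 on the log2 scale for ATRA over Control, 0.45 for ATRA+NIC over ATRA and 0.40 for ATRA+NIC over Control. Among the 7074 of these genes that reached the median level of all genes on at least 1 array it was 0.31, 0.30 and 0.24. Either SD leaves out the spread between cultures. Intensities of different genes come from different probes and are not set against each other, and sums over cell type markers weigh the brightest genes most.

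The 10 genes fell into 3 patterns over the arrays. PTGS2 was high on the ATRA array alone. ALOX5, and to a smaller extent PTGES, was higher on both arrays with retinoic acid than on the Control array. The other 7 genes differed by less than 2-fold in each comparison. For ATRA over Control, 2 of 10 genes were at least 2-fold higher, PTGS2 and ALOX5, and 0 were lower, where 4.23% of all 23595 genes reached 2-fold upward and 3.22% downward. PTGS2 was the 1 of 10 genes at least 2-fold lower for ATRA+NIC over ATRA, and 0 were higher, against 4.12% and 3.09% of all genes. ALOX5 and PTGES were the 2 of 10 genes at least 2-fold higher for ATRA+NIC over Control, and 0 were lower, against 2.32% and 2.08% of all genes. The median log2 difference of the 10 genes was 0.14, −0.06 and −0.05 in these comparisons, beside −0.03, 0.04 and 0.00 over all genes. The comparisons share arrays in pairs, so their values are not independent of each other. PTGS2 reached the median level of all genes, a log2 level of 7.95, only on the ATRA array, and ALOX5 only on both arrays with retinoic acid, so a rule that keeps genes at that level keeps them through the arrays where they were high. In all, 6 of 10 genes reached it on at least 1 array, and PTGS1, ALOX12, ALOX15B and HPGD did not. Of all 23595 genes, 12467 reached it, a share near that of the 10 genes.

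**Figure D1:**
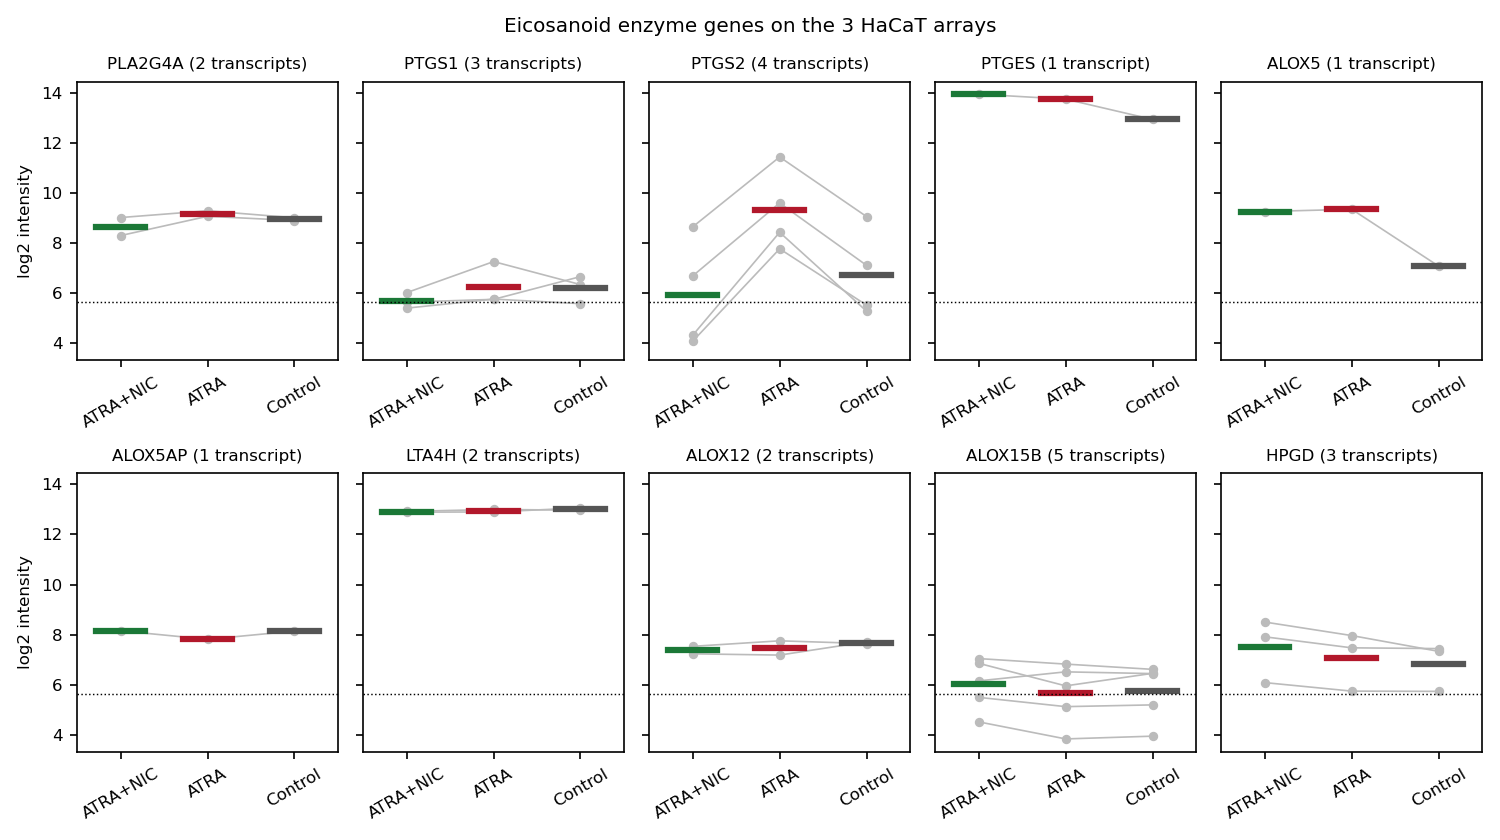
Log2 intensity (vertical axis) of the 10 genes on the ATRA+NIC, ATRA and Control arrays (left to right in each panel). Coloured bars are gene levels, grey points joined by lines are single transcripts, and the dotted line marks an intensity of 50. PTGS2 stands high on the ATRA array in all 4 transcripts, and ALOX5 stands at 9.26 and 9.35 on the ATRA+NIC and ATRA arrays and at 7.08 on the Control array.

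PLA2G4A, on chromosome 1 at 185064727 to 185224736 of human build hg18, encodes the cytosolic phospholipase A2 that releases arachidonic acid. Its transcript NM_024420 had intensities of 518 with ATRA+NIC, 628 with ATRA and 517 in Control cells. Transcript BC114340 had 314, 539 and 477 on the same arrays. Both transcripts were highest on the ATRA array. The gene level differed by 0.23 ± 0.07 on the log2 scale for ATRA over Control and by −0.53 ± 0.35 for ATRA+NIC over ATRA (SD, n = 2 transcripts). The first of these is under both pooled SDs of transcripts and the second above both.

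PTGS2, the inducible cyclooxygenase, lies on chromosome 1 at 184907591 to 184916179 and was read by 4 transcripts. Transcript AJ634912, the brightest, had intensities of 402 with ATRA+NIC, 2776 with ATRA and 533 in Control cells. Transcript NM_000963, which has the longest annotated span of the 4, had 103, 776 and 138. Transcript BC013734 had 20.0, 346 and 38.7, and AY151286 had 16.9, 219 and 45.9, so that both were near the random probes on the ATRA+NIC array. The order was the same in all 4 transcripts, with ATRA highest, Control next and ATRA+NIC lowest.

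The gene level of PTGS2 was 5.93 with ATRA+NIC, 9.31 with ATRA and 6.74 in Control cells. For ATRA over Control the log2 difference was 2.57 ± 0.40 (SD, n = 4 transcripts), at least 5.46-fold when transcript values under 50 are set to 50, and the 4 transcripts ranged between 2.25 and 3.16. This put PTGS2 at rank 63 from the highest of 23595 genes. The difference was −3.38 ± 0.63 for ATRA+NIC over ATRA, at least 6.30-fold lower, with transcripts between −4.11 and −2.79, at rank 25 from the lowest. Both ranks use the levels as measured, so the 2 transcripts near the random probes enter them. With values under 50 set to 50, the difference for ATRA+NIC over ATRA was −2.66. Between ATRA+NIC and Control the measured difference was −0.81 ± 0.49, but only −0.21 with values under 50 set to 50. The 2 transcripts that stayed above 50 on all arrays differed there by −0.41 and −0.42, close to the pooled SD over all genes and above that of the brighter genes. The lower gene value against Control therefore rests mainly on the 2 dim transcripts. An offset of 100 before the log2 lowered the size of the first 2 differences, to 1.72 and −1.99.

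Because PTGS2 had the greatest differences of the 10 genes for ATRA over Control and for ATRA+NIC over ATRA, the 250 bases before its annotated start are shown, with matches to the searched motifs in capitals (RefSeq, GRCh38.p14, minus strand, chr1:186680424-186680673). The same stretch of PTGES is given for comparison (chr9:129753043-129753292, minus strand).
PTGS2: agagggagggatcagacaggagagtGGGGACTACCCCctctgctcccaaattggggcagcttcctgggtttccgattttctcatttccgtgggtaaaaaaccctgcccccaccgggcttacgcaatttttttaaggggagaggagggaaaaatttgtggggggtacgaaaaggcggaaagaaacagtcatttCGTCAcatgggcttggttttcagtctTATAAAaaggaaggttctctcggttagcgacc
PTGES: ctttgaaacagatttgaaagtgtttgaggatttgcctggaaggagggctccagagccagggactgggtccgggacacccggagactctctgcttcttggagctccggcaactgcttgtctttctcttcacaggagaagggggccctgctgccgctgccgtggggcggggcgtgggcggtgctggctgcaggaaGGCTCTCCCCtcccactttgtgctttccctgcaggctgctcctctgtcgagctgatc
Each motif was searched on both strands in 300 bases, 250 before and 50 after the start, and 8 of 10 genes had an entry, ALOX5 and ALOX15B being the others. PTGS2 held TATAAA, which 11.5% of 35116 promoters hold, beginning 32 bases before the start. It held TGACG, a part of the cyclic AMP response element, on the minus strand beginning 58 bases before the start and again in the 50 bases after it, and 24.6% of promoters hold this motif. The NF-kappaB form GGGNNNNNCC matched 4 times in overlap in the run that begins 225 bases before the start, but 58.7% of promoters match it somewhere. PTGES held the last motif alone, as 1 match on the minus strand beginning 57 bases before the start. Neither held the AP-1 form TGANTCA (7.71% of promoters), the E-box CACGTG (7.26%) or the retinoid receptor core motif AGGTCA or GGTTCA (20.9%). These matches describe letters and not bound sites.

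PTGS1 encodes the constitutive cyclooxygenase and lies on chromosome 9 at 124173049 to 124197802. It was dim, with gene levels of 5.69 with ATRA+NIC, 6.26 with ATRA and 6.20 in Control cells. Transcript NM_000962 had intensities of 64.7, 153 and 81.3 on the ATRA+NIC, ATRA and Control arrays, while BC029840 had 49.95, 53.9 and 101. DQ180741 had 42.4, 54.0 and 48.0. The transcripts differed in sign for ATRA over Control, and the gene difference of 0.06 ± 0.92 (SD, n = 3 transcripts) was far under their spread. All 3 were lower on the ATRA+NIC array than on the ATRA array, by −0.57 ± 0.60 as a gene, or −0.49 with values under 50 set to 50. The brightest transcript alone gave −1.25 there and 0.92 for ATRA over Control, so the value for PTGS1 depends on the transcript read.

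PTGES encodes microsomal prostaglandin E synthase 1, the inducible terminal synthase that works with the inducible cyclooxygenase. On chromosome 9 at 131540432 to 131555165, it was read by a single transcript with intensities of 15828 with ATRA+NIC, 13787 with ATRA and 7875 in Control cells. Both arrays with retinoic acid were higher than the Control array. PTGES was 1.75-fold higher on the ATRA array than on the Control array, and 2.01-fold higher on the ATRA+NIC array than on the Control array, a log2 difference of 1.01 that only just reaches 2-fold. ATRA+NIC over ATRA gave 0.20, under both pooled SDs of transcripts. Unlike PTGS2, PTGES was thus not lower on the ATRA+NIC array than on the ATRA array, although with 1 array a group this contrast between both genes was not tested.

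ALOX5 encodes the arachidonate lipoxygenase that starts leukotriene synthesis. It lies on chromosome 10 at 45189634 to 45261571, and its single transcript had intensities of 612 with ATRA+NIC, 653 with ATRA and 135 in Control cells. The arrays with retinoic acid were close to each other and both far above the Control array. ALOX5 was 4.82-fold higher on the ATRA array than on the Control array, a log2 difference of 2.27 at rank 95 from the highest of 23595 genes. On the ATRA+NIC array it was 4.52-fold higher than on the Control array, a log2 difference of 2.18 at rank 30. ATRA+NIC over ATRA differed by −0.09. The differences from Control are about as large under every scaling tried, and an offset of 100 before the log2 lowered them to 1.68 and 1.60. The value rests on 3 probes, and no second transcript was there to check it.

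The partners of ALOX5 in leukotriene synthesis differed little. ALOX5AP, which encodes the membrane protein that presents arachidonic acid to the ALOX5 enzyme, lies on chromosome 13 at 30207668 to 30236556. It had intensities of 283 with ATRA+NIC, 225 with ATRA and 282 in Control cells, a difference of −0.32 for ATRA over Control and 0.33 for ATRA+NIC over ATRA. Both are under the pooled SD of transcripts over all genes and slightly above that of the brighter genes. LTA4H, on chromosome 12 at 94918740 to 94953496, encodes the hydrolase that makes leukotriene B4. Its transcripts BC032528 and NM_000895 had 7758 and 7588 with ATRA+NIC, 8179 and 7656 with ATRA and 8002 and 8562 in Control cells. The differences of the LTA4H level were −0.06 ± 0.14 for ATRA over Control, −0.04 ± 0.04 for ATRA+NIC over ATRA and −0.11 ± 0.09 for ATRA+NIC over Control (SD, n = 2 transcripts).

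ALOX12, which encodes the platelet-type lipoxygenase, and ALOX15B, which encodes a lipoxygenase found in skin appendages, stayed under the median level of all genes on all arrays. Both transcripts of ALOX12 were above 50 on each array, while ALOX15B was dim. ALOX12, on chromosome 17 at 6840127 to 6854776, had gene levels of 7.38 with ATRA+NIC, 7.46 with ATRA and 7.68 in Control cells. Its transcripts differed in sign for ATRA over Control (−0.53 for BC069557 and 0.11 for NM_000697). ALOX15B, on chromosome 17 at 7883082 to 7893177, had levels of 6.01, 5.65 and 5.73 on the same arrays, with 2 of its 5 transcripts under 50 on all of them. For ATRA+NIC over ATRA, 4 of the 5 transcripts of ALOX15B were higher and 1 lower, and the difference of 0.36 ± 0.48 was smaller than their spread and came to 0.15 with values under 50 set to 50.

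HPGD encodes the dehydrogenase that inactivates prostaglandins, the breakdown enzyme of the 10. It lies on chromosome 4 at 175647954 to 175680186 and had gene levels of 7.50 with ATRA+NIC, 7.06 with ATRA and 6.83 in Control cells. Transcript U63296 had intensities of 362, 250 and 161 on the ATRA+NIC, ATRA and Control arrays, X82460 had 241, 177 and 173, and NM_000860 had 67.9, 53.4 and 53.1. All 3 transcripts were highest on the ATRA+NIC array, and the ATRA array was above Control by 0.01 and 0.03 in NM_000860 and X82460, against 0.64 in U63296. HPGD was 1.36-fold higher for ATRA+NIC over ATRA, a log2 difference of 0.44 ± 0.09, and 1.59-fold higher for ATRA+NIC over Control, 0.67 ± 0.44 (SD, n = 3 transcripts). The second value was 1.17 for the brightest transcript alone, which is past 2-fold.

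**Figure D2:**
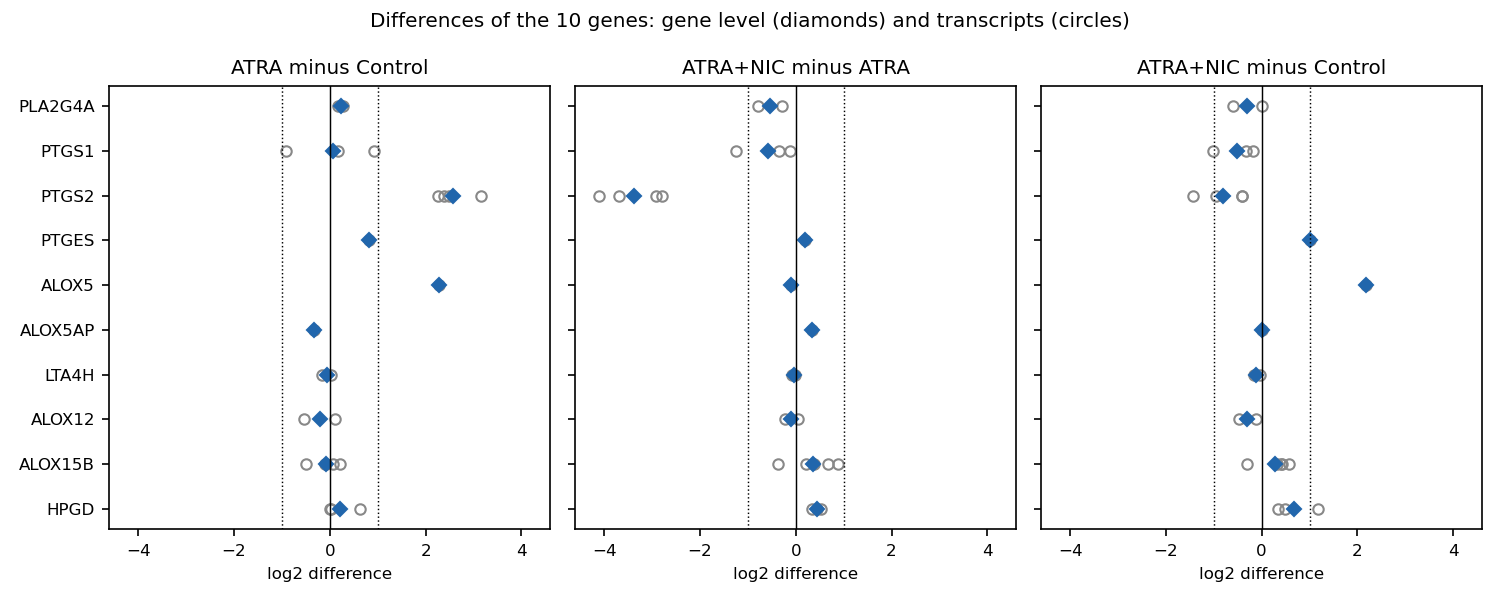
Log2 differences (horizontal axis) of the 10 genes for ATRA minus Control, ATRA+NIC minus ATRA and ATRA+NIC minus Control. Diamonds are gene levels, circles are single transcripts, and dotted lines mark 2-fold. The 4 transcripts of PTGS2 lie between 2.25 and 3.16 in the left panel and between −4.11 and −2.79 in the middle panel, while ALOX5 lies at −0.09 in the middle panel.

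**Figure D3:**
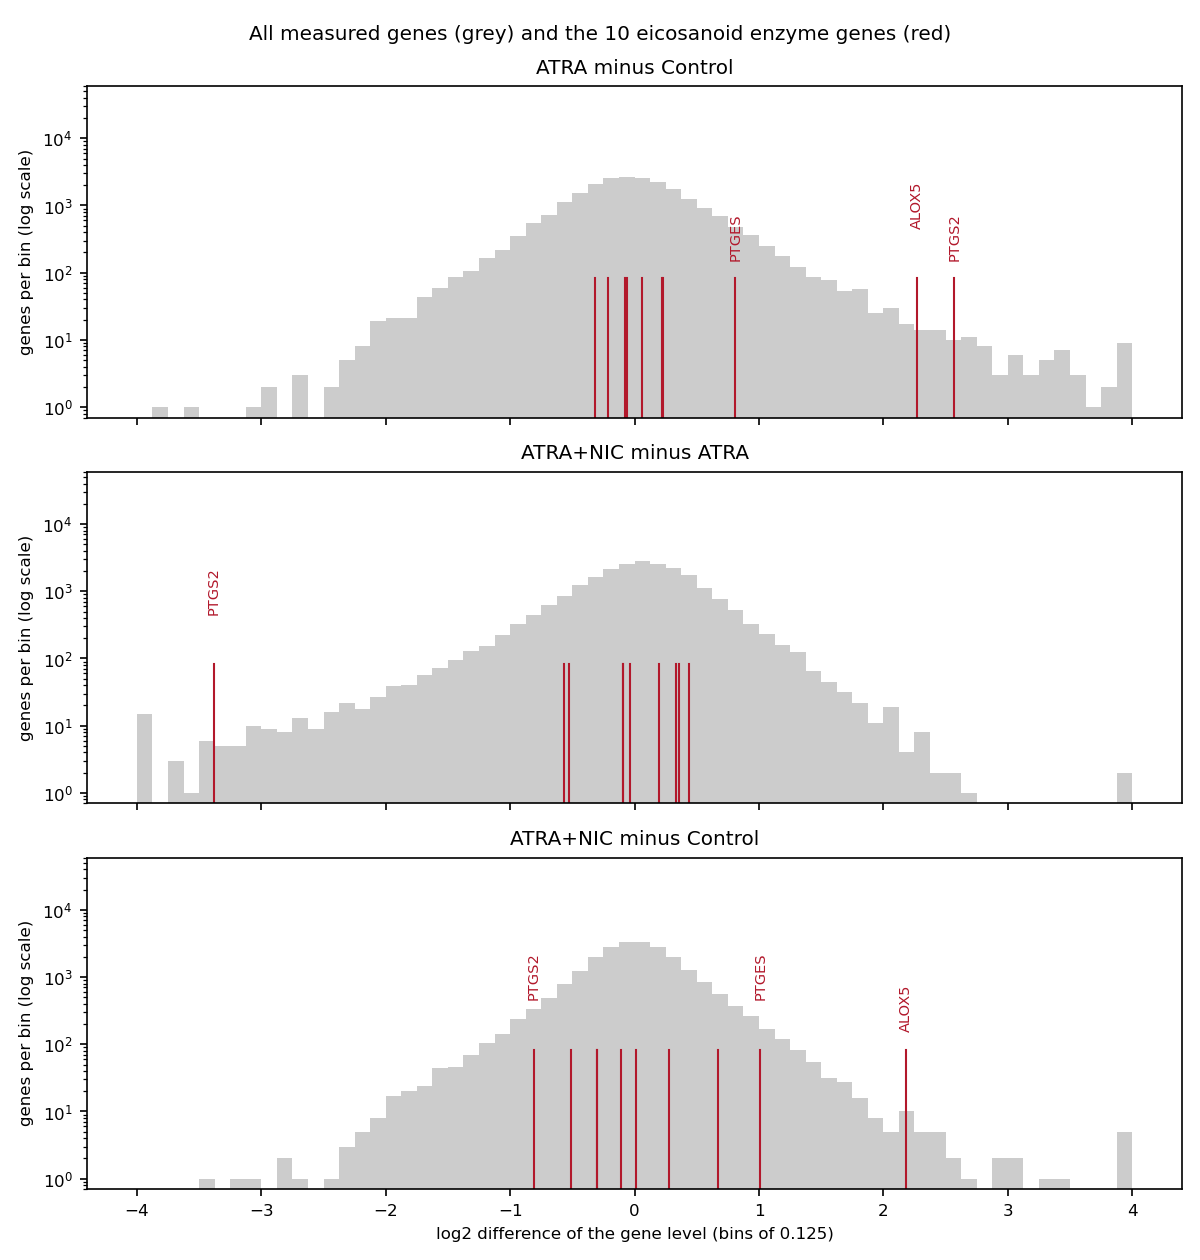
Number of genes (vertical axis, log scale) by log2 difference of the gene level (horizontal axis) for all 23595 measured genes in grey, with genes beyond ±4 drawn in the outermost bins, and the 10 eicosanoid enzyme genes as red lines, named where they lie far from 0. PTGS2 and ALOX5 lie in the upper tail for ATRA minus Control, PTGS2 alone in the lower tail for ATRA+NIC minus ATRA, and ALOX5 in the upper tail for ATRA+NIC minus Control.

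ALOX5 and ALOX5AP are known mainly from leukocytes and ALOX12 from platelets, and several markers of these cells were higher with ATRA. Of 10 general and myeloid leukocyte markers, 5 reached a level of 50 with ATRA+NIC, 8 with ATRA and 6 in Control cells, with summed intensities of 3109, 4590 and 2501. Such a sum follows its brightest gene, here CD68, which made up most of it on each array. S100A12 was under 50 on all arrays, and PTPRC, the pan-leukocyte marker, had 18.5, 151 and 33.7. The myeloid markers CD14 and CD68 had 333 and 2339 with ATRA+NIC, 347 and 3399 with ATRA and 190 and 1774 in Control cells. LYZ was lower with ATRA, at 86.1, 75.3 and 117 on the ATRA+NIC, ATRA and Control arrays. The other 9 were higher with ATRA than in Control cells, but MPO only from 24.1 to 29.2, with 65.2 on the ATRA+NIC array. The 5 lymphocyte markers summed to 275, 973 and 480, with MS4A1 under 50 throughout. The 6 mast cell markers summed to 202, 243 and 211, with CPA3, MS4A2 and KIT under 50 throughout. The 5 platelet markers all reached 50 on each array and summed to 718, 1407 and 759. Of these, 4 were higher with ATRA than in Control cells, and GP1BA was lowest with ATRA, at 239, 208 and 267. Keratinocyte markers were not steady either. Of 8, 6 were higher with ATRA than in Control cells, while KRT5 and ITGA6 were lower. Only 2 of 8 were higher on the ATRA+NIC array than on the ATRA array. KRT5 had 10009, 10041 and 29746 on the ATRA+NIC, ATRA and Control arrays, TP63 had 2193, 5913 and 4217, and DSG3 had 1147, 2914 and 1542. The cultures were of the HaCaT keratinocyte line, and the part of these markers in the results was not tested. In RNA of whole cultures fewer cells of a type and less RNA per cell cannot be told apart.

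Genes with the pattern most like that of PTGS2 were sought. By distance between the pair of log2 differences (ATRA minus Control and ATRA+NIC minus ATRA) over the 3 arrays, the nearest of 6867 genes with more than 1 transcript were GADD45B, a growth arrest gene, at 2.72 and −3.20 (distance 0.23), TCIM at 2.37 and −3.56 (distance 0.27) and ATF3, a stress-response transcription factor gene, at 2.86 and −3.41 (distance 0.30). For ALOX5 they were TJP3, a tight junction scaffold gene, at 2.21 and −0.09 (distance 0.06), the mucin gene MUC20 at 2.35 and 0.00 (distance 0.12) and CEACAM3 at 2.39 and −0.17 (distance 0.15).

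The rest of the eicosanoid pathway was read through a list of 93 genes in 7 roles, of which 92 were measured. For ATRA over Control 7 of 92 were at least 2-fold higher and 3 lower, shares of 7.61% and 3.26% beside 4.23% and 3.22% of all genes, with a median difference of 0.10. In ATRA+NIC over ATRA 1 was higher and 5 lower, 1.09% and 5.43% beside 3.09% and 4.12% of all genes, with a median of 0.05. In ATRA+NIC over Control 4 were higher and 0 lower, 4.35% and 0% beside 2.32% and 2.08%, with a median of 0.10. The share of lower genes for ATRA over Control was near that of all genes. In 16 of the 92 genes no transcript reached 50 on any array.

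Receptors differed in both directions. PTGER4, which encodes a receptor of prostaglandin E2, had gene levels of 6.78 with ATRA+NIC, 9.06 with ATRA and 7.17 in Control cells on the log2 scale, as a mean over 2 transcripts. It was 3.70-fold higher for ATRA over Control (log2 difference 1.89 ± 0.02) and 4.85-fold lower for ATRA+NIC over ATRA (−2.28 ± 0.19, SD, n = 2 transcripts each). Its highest array was thus the same as that of PTGS2. LTB4R, which encodes a leukotriene B4 receptor, had intensities of 4947, 2553 and 5381 on the same arrays, a difference of −1.08 ± 0.44 for ATRA over Control and 0.95 ± 0.01 for ATRA+NIC over ATRA. LTB4R2, the neighbouring gene of a second such receptor, had 1100, 518 and 1001, differences of −0.95 and 1.09. Both receptors of leukotriene B4 were lowest on the ATRA array. PTGER1 and PTGIR, receptors of prostaglandin E2 and prostacyclin, were dim. They were lower on the ATRA+NIC array than on the ATRA array, PTGER1 by at least 1.61-fold and PTGIR by at least 2.30-fold. Among other receptors, PTGER2 differed by −0.55 for ATRA over Control, PTAFR by 0.55 in both comparisons with Control, and GPR17 by 0.49 for ATRA+NIC over ATRA.

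Among regulators, ZFP36, which encodes tristetraprolin, a protein known to destabilize mRNAs with AU-rich elements such as that of PTGS2, had intensities of 774 with ATRA+NIC, 4987 with ATRA and 889 in Control cells. It was 5.61-fold higher for ATRA over Control and 6.44-fold lower for ATRA+NIC over ATRA, with a single transcript. CAV1, the caveolin gene, was lower on the ATRA array in all 3 transcripts, at 2-fold with an SD of 0.08 on the log2 scale over transcripts, at intensities of 11195, 8967 and 17971 on the ATRA+NIC, ATRA and Control arrays. ANXA1, whose product restrains phospholipase A2, was 1.35-fold higher for ATRA over Control and 1.77-fold lower for ATRA+NIC over ATRA. S100A10 and TNIP1 differed by −0.62 and 0.57 for ATRA over Control.

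Of 24 measured genes of phospholipases and substrate supply, 3 were at least 2-fold higher on the ATRA array than on the Control array and 1 lower. Over all genes the shares were 4.23% and 3.22%. PNPLA2, the adipose triglyceride lipase gene, was the bright case, with intensities of 5082 with ATRA+NIC, 6381 with ATRA and 2845 in Control cells, 2.24-fold higher for ATRA over Control. The secreted phospholipase genes PLA2G2A and PLA2G2E were dim, at 87.3 and 113 with ATRA+NIC, 118 and 109 with ATRA and 41.3 and 53.4 in Control cells. PLA2G2A was at least 2.35-fold and PLA2G2E 2.05-fold higher for ATRA over Control, and for ATRA+NIC over Control the folds were at least 1.75 and 2.12. The lower gene, PLA2G2D, named after its value was seen, stayed under 50 on all arrays. DAGLA, a diacylglycerol lipase gene, was 1.90-fold higher for ATRA over Control and 1.97-fold higher for ATRA+NIC over Control. PLA2G6 differed by 0.65 for ATRA over Control and PLA2G4C by 0.79, or at least 1.32-fold.

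PTGES itself was 1.75-fold higher for ATRA over Control, and none of the 10 other prostanoid synthase genes reached 2-fold there. The same held for 11 further lipoxygenase and leukotriene genes. Of all genes 4.23% passed 2-fold upward and 3.22% downward in this comparison. Counts of 0 in such short lists are near these shares and do not set either group apart. TBXAS1, the thromboxane synthase gene, had a measured difference of −1.32 for ATRA+NIC over ATRA, but at intensities of 21.2 on the ATRA+NIC array and 52.7 on the ATRA array this is at least 1.05-fold. PRXL2B, PTGIS and CBR1 differed by 0.74, 0.69 and 0.34 in that comparison. The epidermal lipoxygenase genes ALOXE3 and ALOX12B, which serve the skin barrier, differed by 0.51 and 0.59 for ATRA over Control and by −0.95 and 0.25 for ATRA+NIC over ATRA, and ALOX15 by 0.65 and −0.18. ALOX12B was under 50 on the Control array, so that its 0.59 is at least 1.12-fold.

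**Figure D4:**
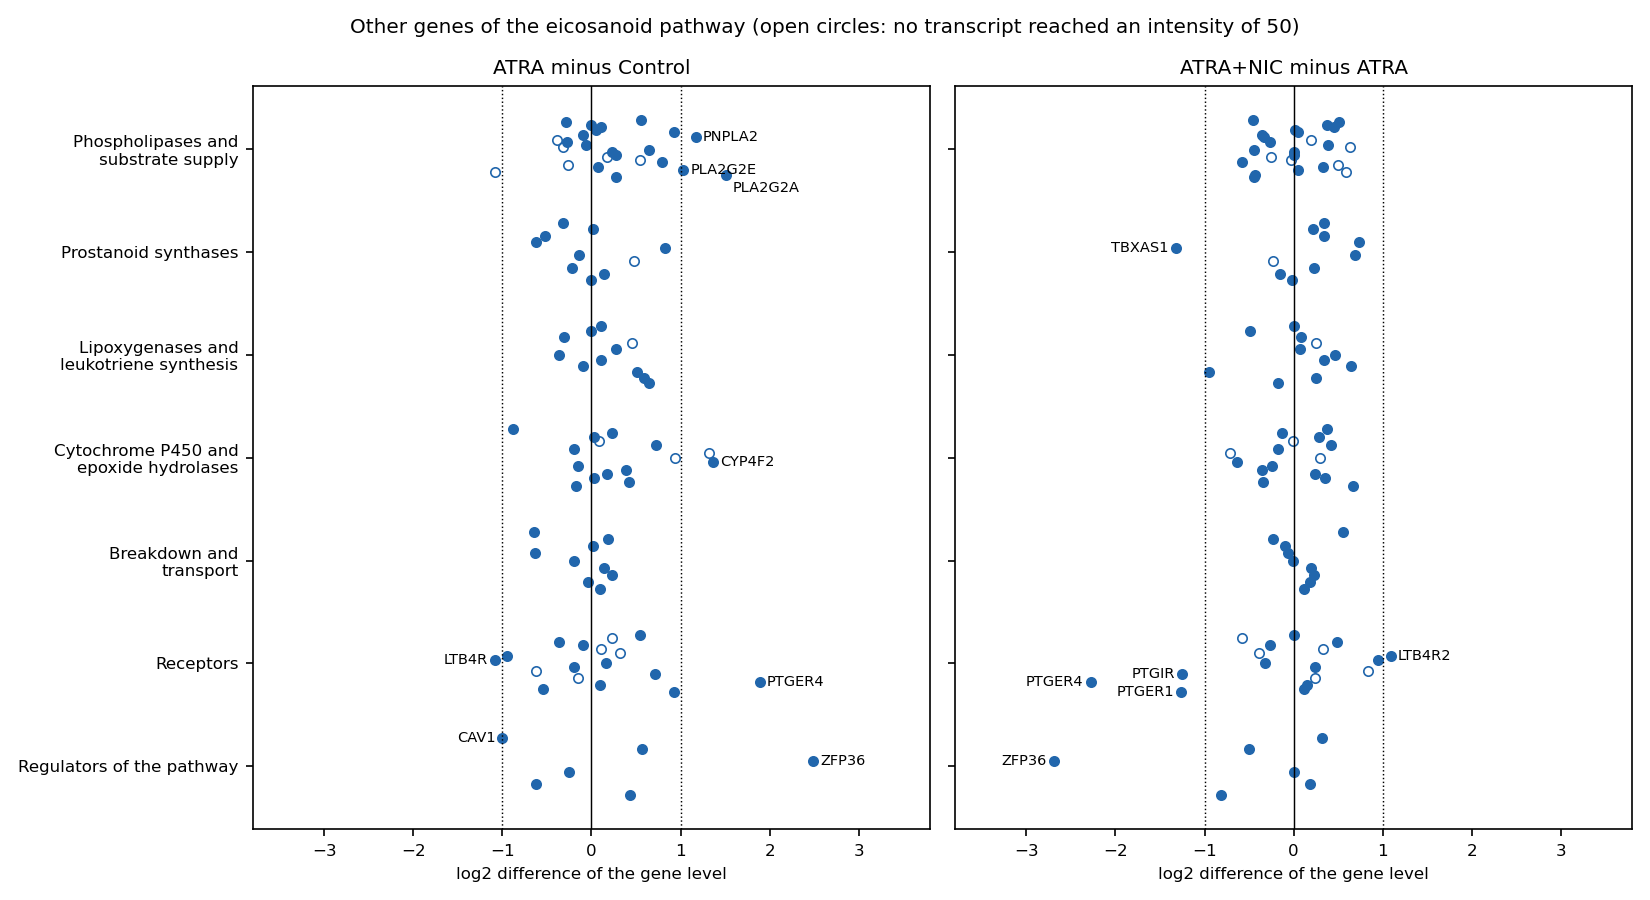
Log2 differences of the gene level (horizontal axis) for 92 other genes of the eicosanoid pathway, by role (vertical axis), for ATRA minus Control and ATRA+NIC minus ATRA. Each circle is a gene, open where no transcript reached an intensity of 50, dotted lines mark 2-fold, and genes past 2-fold are named where a transcript reached 50. PTGER4 and ZFP36 stand at 1.89 and 2.49 in the left panel and at −2.28 and −2.69 in the right panel.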

How the data were processed

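Single-colour NimbleGen arrays of 3 HaCaT cultures were used, 1 per group as labelled. The deposited intensities are on a linear scale, and per the file headers they are RMA calls over 3 probes for each of 45033 transcripts, annotated on human build hg18. The software is not named in the labels or headers. The value table deposited by the authors repeats the intensities of 31275 transcripts, those at 50 or more on each array.

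From these, log2 values were taken without offset or further scaling. Of the transcripts, 2086 had no gene name. Of 23619 gene numbers, 20230 matched a current symbol in RefSeq (GRCh38.p14, names only), and gene levels were means over transcripts. A difference was called at 2-fold, with no test. Where transcript values under 50 on either side moved a fold, it was computed with them set to 50 and written as "at least". Nearest patterns were sought among genes reaching the median level of all genes and arrays (12467) that had more than 1 transcript and no locus, clone or reading-frame name. Named from the list of pathway genes were those past 2-fold in any comparison with a transcript at 50, and the 3 next in each role. The 10 genes, the lists and the rules were chosen with earlier results of these data known. Python 3.11.15, pandas 2.3.3 and numpy 2.4.6 were used.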

Additional observations from a re-analysis of the deposited data

How the results depend on the processing

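Of 240 member differences under the alternatives other than the 1.5-fold threshold, which cannot move them, 0 past 2-fold changed sign, 222 moved by less than the pooled SD of transcripts over all genes and 18 by more, most of them of PTGS1 and PTGS2. Some smaller differences did change sign. With the median of the transcripts, ALOX15B for ATRA+NIC over Control went from 0.28 to −0.30, and PTGS1 for ATRA over Control from 0.06 to −0.59. ALOX12 for ATRA over Control went from −0.21 to 0.11 with the brightest transcript. No paired analysis was possible because each group has 1 array. The members' counts changed in 7 of 54 cases. At 1.5-fold 3 genes were higher for ATRA over Control, and 3 higher and 1 lower for ATRA+NIC over Control. The brightest transcript gave 3 higher genes for ATRA+NIC over Control and 2 lower for ATRA+NIC over ATRA, the value table also gave 2 lower for the last, and an offset of 100 gave 1 higher for ATRA+NIC over Control. The median difference for ATRA+NIC over Control was −0.20 with the median of the transcripts and 0.01 with the brightest. For the other pathway genes, 31 of 54 counts changed, 22 of them by over 1.5 times, and these 22 follow. The count of higher genes for ATRA over Control was 17 at 1.5-fold and 3 with an offset of 100, and that of lower genes 10 and 1. For ATRA+NIC over ATRA the higher genes were 2 with the brightest transcript, 9 at 1.5-fold and 0 with an offset of 100. The lower genes there were 8 with the brightest transcript, 9 at 1.5-fold, 2 with an offset of 100, and 3 each with an offset of 16, the value table (67 genes) and values under 50 set to 50. For ATRA+NIC over Control the higher genes were 7 with the brightest transcript, 10 at 1.5-fold, 0 with either offset, 2 with the value table and 1 with values under 50 set to 50, and the lower genes were 2 with the brightest transcript, 2 at 1.5-fold and 1 with the median of the transcripts. The cause of these changes was not tested. Among all genes passing the filter, 477 reached 2-fold upward and 257 downward for ATRA over Control, 168 and 466 for ATRA+NIC over ATRA, and 128 and 121 for ATRA+NIC over Control. Without the filter these counts were 997, 759, 728, 973, 548 and 491 in that order, and with the 75th percentile as the filter 234, 74, 48, 221, 44 and 48. At 1.5-fold they were 1234, 1121, 982, 1181, 494 and 483, and an offset of 100 gave 130 lower genes for ATRA over Control, 75 higher for ATRA+NIC over ATRA, and 75 higher and 69 lower for ATRA+NIC over Control. Under every scaling the median difference of all genes lay between −0.03 and 0.06 in the 3 comparisons. Low intensity limits PTGS1, ALOX15B and 2 transcripts of PTGS2.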

Other observations

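The cytochrome P450 and epoxide hydrolase genes, whose products oxidize arachidonic acid or open its epoxides, were mostly dim. Of 15 measured, 2 were at least 2-fold higher for ATRA over Control and 0 lower, beside 4.23% and 3.22% of all genes. CYP4F2 had intensities of 66.0 with ATRA+NIC, 102 with ATRA and 39.3 in Control cells, at least 1.53-fold higher for ATRA over Control. The other, CYP4F8, named after its value was seen, stayed under 50 on all arrays. CYP4F12 was 1.14 higher on the log2 scale for ATRA+NIC over Control, with gene levels under 50 throughout, which is at least 1.07-fold. EPHX3, an epoxide hydrolase gene of the epidermis, differed by −0.88 for ATRA over Control and by 0.38 for ATRA+NIC over ATRA. CYP2C8, with gene levels under 50 throughout, differed by 0.67 for ATRA+NIC over ATRA, or at least 1.16-fold.

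Besides HPGD, whose gene level stayed under 2-fold, 9 genes of prostaglandin breakdown and transport were measured, and 0 of them reached 2-fold in any comparison. Over all genes between 2.08% and 4.23% did in each direction, and in a list this short a count of 0 is near those shares. The medians of the 9 genes were 0.02 for ATRA over Control, 0.12 for ATRA+NIC over ATRA and −0.04 for ATRA+NIC over Control. ABCC4, which encodes an exporter of prostaglandin E2, differed by −0.65 for ATRA over Control and by 0.55 for ATRA+NIC over ATRA. SLCO2A1, which encodes the prostaglandin uptake transporter, differed by −0.63 for ATRA over Control and by −0.69 for ATRA+NIC over Control, or −0.46 and −0.53 with values under 50 set to 50. AKR1C1 differed by 0.46 for ATRA+NIC over Control.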
